A study of Sus scrofa with 2 samples.

Results

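The enzymes described here are ENO1, LDHA, TPI1 and PGK1 of glycolysis and GALK1 of galactose entry. They were taken as every probe whose gene symbol in the platform annotation is one of these 5, which gave 8 of the 43794 transcript probes of the array and 5 of its 11938 gene symbols. TPI1, ENO1 and LDHA have 1 probe each, GALK1 has 2 and PGK1 has 3. The genes were singled out because earlier results placed most of them far from 0 in the contrast described below, so their distance from 0 is a description and was not tested.

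The array, EMPV1, carries probes for transcripts of porcine embryos. RNA of 2 single cumulus-oocyte complexes (COC), labelled COC7 and COC4, was set against each other on 2 arrays. A COC is an oocyte with the somatic cumulus cells around it. Both came from Large White pigs, with ovaries of gilts collected at a slaughterhouse and COC aspirated from mature follicles, and the sources give no treatment or genotype that would separate them. On array 1 the dye Cy5 marked COC7 and the dye Cy3 marked COC4, and array 2 had them the other way round. Each side is therefore 1 COC, both arrays are technical repeats of 1 pair of RNAs, and with 0 degrees of freedom no test between the COC was possible. Nothing was measured about how these transcripts vary among COC.

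Glycolysis splits glucose into pyruvate and yields ATP, and lactate dehydrogenase converts pyruvate and lactate into each other. Galactose joins this route through the Leloir pathway, in which it is phosphorylated and exchanged for glucose before a mutase step feeds it in. In the ovarian follicle the oocyte itself uses little glucose, and the cumulus cells break it down and pass on pyruvate and lactate.

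Values are log2 ratios of COC7 over COC4. The sign of array 2 was turned, so that a positive value stands for more signal from COC7 (the COC7 side) and a negative value for more from COC4 (the COC4 side) on either array, and the mean of both arrays was taken. The mean of both arrays without turning is the dye part, which follows the dye and cancels in the turned mean. The distance from the turned mean to either array equals the size of the dye part. As a basis for the direction, only the channel order of the labels was at hand, which puts Cy5 over Cy3. Were the ratio the inverse, all signs below would turn and the names COC7 and COC4 would have to be swapped.

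All 4 glycolytic enzymes had a mean on the COC4 side and GALK1 had one on the COC7 side. As means over their probes, the genes had a log2 ratio of −0.66 for TPI1, −0.53 for PGK1, −0.75 for ENO1 and −0.75 for LDHA, which is 1.44-fold to 1.68-fold more signal from COC4. GALK1 had 1.19, or 2.28-fold more signal from COC7. Both probes of GALK1 and none of the 6 glycolytic probes reached 2-fold, while 0.0913% of all probes did so toward COC7 and 0.0822% toward COC4. At 1.5-fold, 5 of the 6 glycolytic probes were counted on the COC4 side, beside 0.788% of all probes, and both GALK1 probes on the COC7 side, beside 0.916%. These shares are given for scale only, since the genes were chosen by this contrast.

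**Figure D1:**
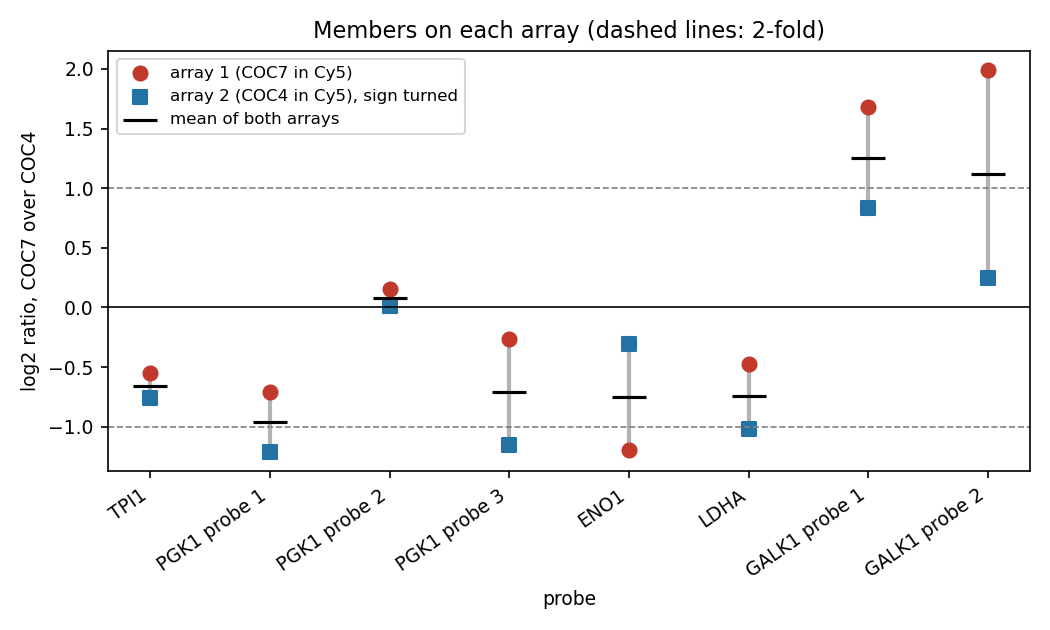
Log2 ratio of COC7 over COC4 for each of the 8 probes on array 1 (circles) and on array 2 with the sign turned (squares), with the mean of both as a bar and dashed lines at 2-fold. Circle and square of each probe lie on the same side of 0, and for GALK1 probe 2 they are farthest apart, at 1.99 and 0.25.

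TPI1, the isomerase that interconverts the pair of triose phosphates made by aldolase, was the most even of the 5 genes between the arrays. Its log2 ratio was −0.55 on array 1 and −0.76 on array 2, with a mean of −0.66 and a dye part of 0.11. The lower signal of COC7 was thus 1.46-fold on one array and 1.70-fold on the other. Among all probes it ranked 225 on the COC4 side, and 1.15% of probes lay as far from 0 on either side.

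PGK1, the kinase that makes the first ATP of the lower pathway, was read by 3 probes that did not give 1 value. Probe 1 had −0.71 on array 1 and −1.21 on array 2, with a mean of −0.96, or 1.95-fold, which was the farthest of the glycolytic probes. Probe 3 had −0.26 and −1.15, with a mean of −0.71, so that its contrast was 1.20-fold on array 1 and 2.23-fold on array 2. Probe 2 had 0.15 and 0.013, with a mean of 0.082, or 1.06-fold, and 52.5% of all probes lay as far from 0 as that or farther. Probes 1 and 3 were therefore on the COC4 side on both arrays, and probe 2 was close to 0 on both. All 3 probes carry the same transcript accession of PGK1 in the annotation, and where on the transcript each of them lies was not analysed here.

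ENO1, the enolase found in most tissues, was the only one of the 5 genes with a negative dye part. Its log2 ratio was −1.20 on array 1, where COC7 carried Cy5, and −0.31 on array 2, with a mean of −0.75 and a dye part of −0.44. The contrast was 2.29-fold on array 1 and 1.24-fold on array 2.

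LDHA, the lactate dehydrogenase subunit that prevails in skeletal muscle, had almost the same mean as ENO1 but was the larger on the other array. Its log2 ratio was −0.47 on array 1 and −1.02 on array 2, with a mean of −0.75 and a dye part of 0.27. The contrast was 1.39-fold and 2.03-fold. ENO1 and LDHA ranked 128 and 134 among all probes on the COC4 side.

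GALK1, galactokinase, adds the phosphate that commits galactose to the Leloir pathway. Probe 1 had 1.68 on array 1 and 0.83 on array 2, with a mean of 1.26 and a dye part of 0.43. Probe 2 had 1.99 and 0.25, with a mean of 1.12 and a dye part of 0.87. Both probes were higher on array 1, where COC7 carried Cy5, and on array 2 they gave 1.78-fold and 1.19-fold. For probe 2 the dye part was 0.78 of the mean, and 0.203% of all probes had a dye part as far from 0 on the same side. The probes ranked 7 and 25 on the COC7 side, and as a gene GALK1 had rank 3 on that side among the 11938 symbols.

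The arrays did not order the 5 genes alike. Of the 8 probes, 4 had the larger contrast on array 1 and 4 on array 2. At 2-fold, array 1 alone counted ENO1 and both probes of GALK1, array 2 alone counted PGK1 probe 1, PGK1 probe 3 and LDHA, and none of the 8 was 2-fold on each array, beside 0.032% of all probes. Shares of all probes past 2-fold on a single array were not counted. All 8 probes had the same sign on both arrays, against 37.1% of all probes. Among the probes at 1.5-fold or more, as 7 of the 8 are, 90.3% had the same sign on both arrays. Over all probes the dye part had a larger spread than the contrast between the COC, with an SD of 0.25 against 0.19.

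**Figure D2:**
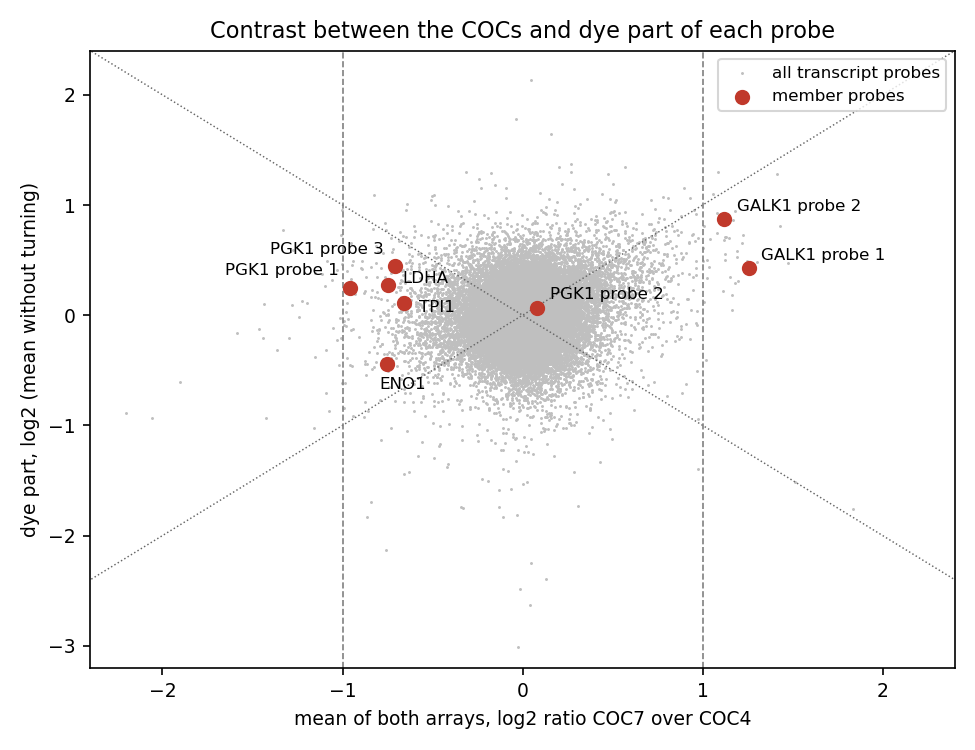
Turned mean of both arrays (log2 ratio of COC7 over COC4) against the dye part (log2, mean without turning) for all 43794 probes (grey) and the 8 probes of the 5 genes (red), with dashed lines at 2-fold and dotted lines where both parts are equal in size. Probes between the dotted lines on the left or right have the same sign on both arrays, as do all 8, with PGK1 probe 2 near the centre and GALK1 probe 2 close to a dotted line.

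Agreement between probes of 1 gene was set against that of other genes with as many probes. The turned means of the 3 PGK1 probes spanned 1.04, while the median span of the 921 symbols with 3 probes was 0.21, and 0.543% of these symbols had a span as wide. The span was 0.86 on array 1 and 1.22 on array 2, and 10.1% and 1.09% of the symbols were as wide. The dye part of the PGK1 probes spanned 0.38, which 36.9% of the symbols reached. The span of the PGK1 probes was thus wide in the contrast between the COC and ordinary in the dye part. PGK1 was chosen by this contrast and the other symbols were not, so these shares are a description only. The 2 probes of GALK1 spanned 0.14 in the turned mean, close to the median of 0.13 over the 1787 symbols with 2 probes. They spanned 0.31 on array 1 and 0.58 on array 2, where 9.40% of the symbols were as wide. The closeness of their means therefore came with a wider gap on array 2.

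**Figure D3:**
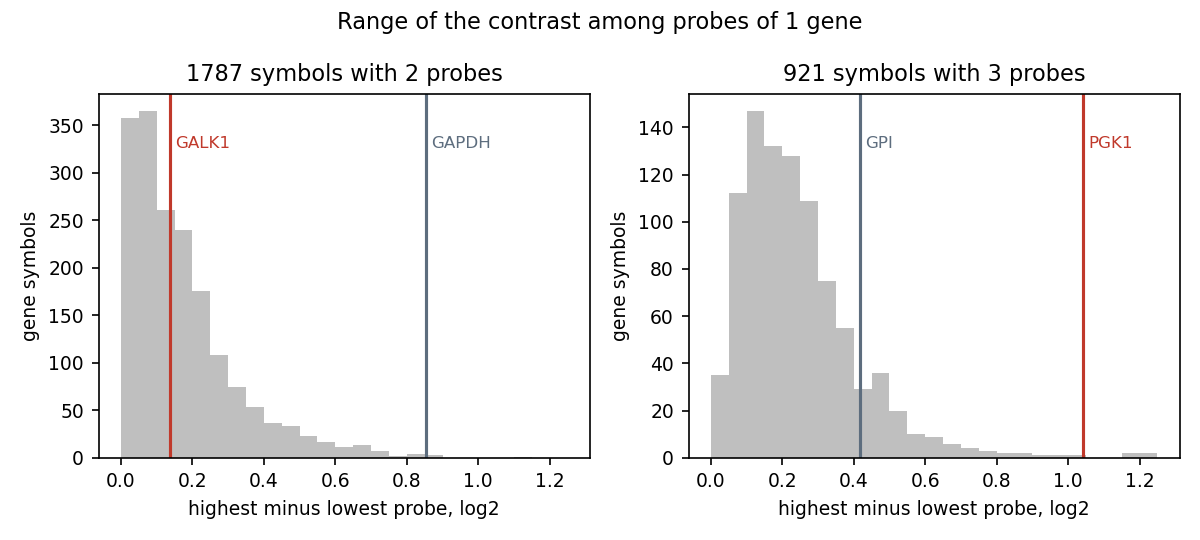
Number of gene symbols by the difference between their highest and lowest probe in the turned mean (log2), for the 1787 symbols with 2 probes (left) and the 921 with 3 probes (right). GALK1 lies at 0.14, near the median of its class, and PGK1 at 1.04, in the sparse upper end of its class, while GAPDH and GPI, other enzymes of glycolysis, lie at 0.85 and 0.42.

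Other isoenzymes of the same steps lay nearer to 0. Detection was not computed, so a ratio near 0 does not tell equal RNA in both COC from little signal in both. ENO3, the enolase of muscle, had 3 probes between −0.039 and 0.067, and PGK2, the phosphoglycerate kinase of the testis, had 0.081 with opposite signs on the arrays. LDHB, the lactate dehydrogenase subunit that prevails in heart, was on the COC4 side with probes at −0.12 and −0.50. As a gene it had −0.30 on array 1 and −0.31 on array 2. The probe at −0.12 had opposite signs, with 0.11 on array 1 and −0.35 on array 2, so these even gene values arise by averaging. In the current porcine annotation 2 genes share the symbol LDHB, so its probes may not read 1 gene. LDHC, the subunit of the testis, neighbours LDHA on the chromosome with 0 genes between them, and of its 4 probes 3 ran the other way, at 0.26 to 0.30, while the fourth was near 0 at −0.032. GALK2, a related kinase known in mammals to prefer N-acetylgalactosamine, had 5 probes between 0.0028 and 0.079, and on array 1 and array 2 its mean was −0.041 and 0.14. The far position of GALK1 was thus not shared by GALK2, nor that of ENO1 by ENO3 or of PGK1 by PGK2, although whether these pairs differ could not be tested. LDHD, the dehydrogenase of D-lactate, had −0.016.

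The measured genes of the remaining steps of glycolysis did not all lie on 1 side of 0. Here too, a ratio near 0 may come from a transcript with little signal in both COC. Each of the 10 steps had at least 1 named probe, but aldolase was represented by ALDOC alone, phosphoglycerate mutase by PGAM2 alone and pyruvate kinase by PKLR alone. ALDOA, PGAM1 and PKM have no named probe and were not analysed here. HK1, a hexokinase of the first step, was on the COC4 side with −0.45 on array 1 and −0.41 on array 2. GPI, the isomerase of the second step, had 3 probes at −0.23, −0.45 and −0.65, and the farthest of these had 0.066 on array 1 and −1.36 on array 2. GAPDH, which oxidises the triose phosphate, had probes at −0.80 and 0.055, a span reached by 0.224% of the symbols with 2 probes. The first of these was below 0 on both arrays, with −0.94 and −0.66, and the second was near 0 on both, with 0.12 and −0.0090. PGK1 and GAPDH, which catalyse consecutive steps, were therefore alike in having 1 probe near 0 beside a probe at −0.80 or below.

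Of the other enzymes of these steps, PFKP, a phosphofructokinase, lay on the COC7 side on both arrays with 0.27 and 0.20. PGAM2, the mutase of muscle, had a mean of 0.22 with opposite signs on the arrays. HK2 had −0.20, HKDC1 had −0.15, HK3 had 5 probes between −0.16 and 0.037, and the means of PFKM, ALDOC, GAPDHS and PKLR lay between −0.038 and 0.062. Each of these except PFKP had opposite signs on the arrays as a gene.

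In all, 21 genes of glycolysis and lactate dehydrogenase were measured, 13 of them below 0 and 8 above, and their median was −0.038. Over all 11938 named genes, 5726 were below 0 and 6212 above, and the median was 0.0062. Without TPI1, PGK1, ENO1 and LDHA, 9 of the 17 other genes were below 0 and 8 above. Their median was −0.016, from −0.15 on array 1 and 0.17 on array 2. Isoenzymes typical of other tissues are among these 17, so this median does not show whether the pathway differed between the COC. As means over their probes, HK1, GPI, GAPDH and LDHB were the 4 of these 17 that were below 0 on both arrays, and PFKP and LDHC were the 2 above 0 on both. By stage, upper glycolysis (glucose to triose phosphate, 9 of 13 listed genes measured) had a median of −0.15, and lower glycolysis (triose phosphate to pyruvate, 8 of 12 measured) had 0.018. Both medians changed sign between the arrays, with −0.26 on array 1 and 0.11 on array 2 for the upper stage and −0.13 and 0.11 for the lower. Lactate dehydrogenase and lactate transport (7 of 9 measured) had a median of −0.0035, with the lactate and pyruvate carriers SLC16A1 at 0.093 and SLC16A7 at 0.016, each of opposite sign on the arrays.

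**Figure D4:**
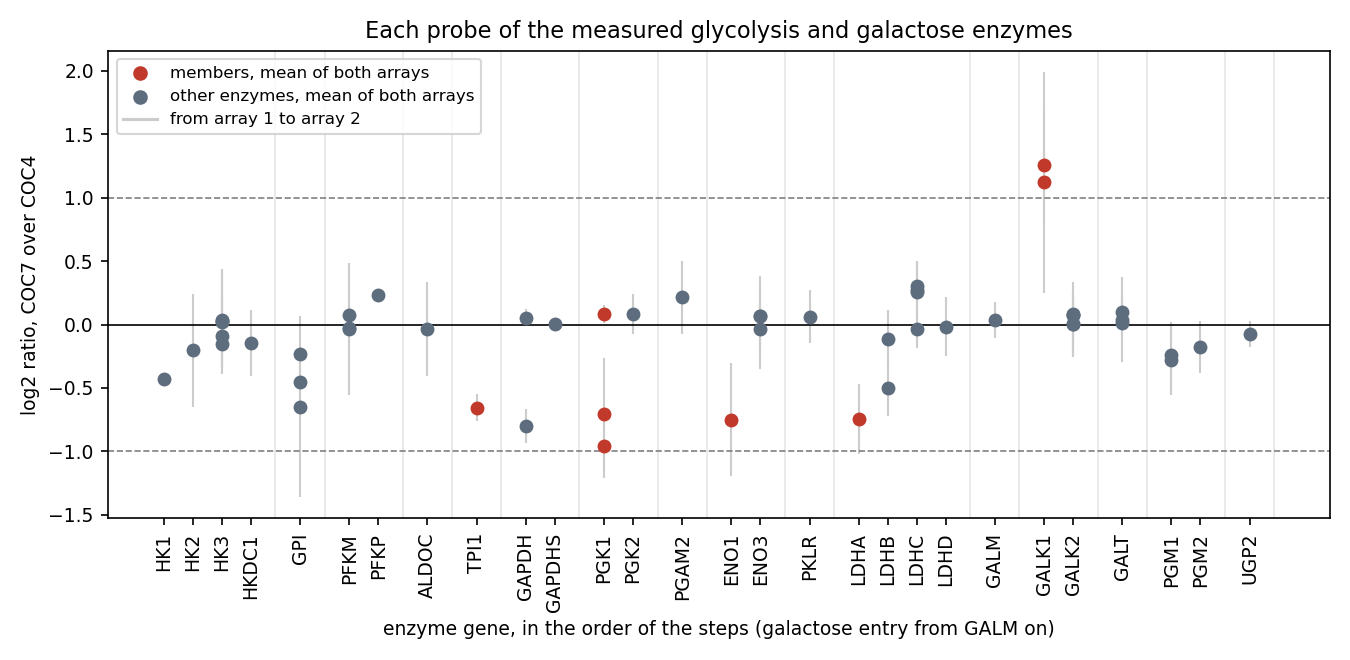
Log2 ratio of COC7 over COC4 (mean of both arrays, points) for every probe of the measured enzymes of glycolysis, lactate dehydrogenase and galactose entry, in the order of the steps, with a line from array 1 to array 2 and dashed lines at 2-fold. The 5 genes (red) hold both probes past 2-fold, those of GALK1, while GPI, 1 of 2 LDHB probes and 1 of 2 GAPDH probes also lie well below 0.

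The other enzymes of galactose entry lay close to 0 or on the other side. GALM, which turns galactose into the form that GALK1 accepts, had 0.037, and GALT, the transferase that follows GALK1, had 3 probes between 0.0082 and 0.10. PGM1 and PGM2, phosphoglucomutases that hand the product to glycolysis, had −0.26 and −0.18, and both probes of PGM1 were near 0 on array 1 and at −0.50 and −0.55 on array 2. UGP2, which makes UDP-glucose, had −0.075. Of the 7 measured genes of galactose entry, GALK1 was the only one with the same sign on both arrays, beside 38.7% of all named genes. GALK1 was chosen by this contrast, and most probes far from 0 keep their sign, so this does not set it apart. Without GALK1, the other 6 genes were split evenly around 0, 3 on each side, and had a median of −0.019.

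Lists of genes that feed, leave or regulate glycolysis had medians between −0.067 and 0.15. Among glucose transporters, 7 of 11 measured, the median was 0.030, with 0.17 on array 1 and −0.047 on array 2. SLC2A8 had 0.36 from probes at 0.10, 0.23 and 0.75, SLC2A1, the transporter of most tissues, had −0.24 from probes at −0.0060 and −0.48, and SLC2A4, the insulin-responsive transporter, had 0.23. Regulators of glycolysis, 10 of 13 measured, had 8 genes below 0 and 2 above (median −0.053). HIF1A, a subunit of the oxygen-responsive factor known to activate glycolytic genes, had −0.43 on array 1 and −0.0030 on array 2. PFKFB2, which sets the level of an activator of phosphofructokinase, had −0.24 and the pyruvate dehydrogenase kinase PDK3 had −0.16.

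In the pentose phosphate pathway all 4 measured genes of 9 had a mean above 0, but PGD alone was above 0 on both arrays. PGD, the second dehydrogenase of its oxidative branch, had 0.59, but 1.11 on array 1 and 0.058 on array 2, an array pattern of the kind seen for GALK1 probe 2. RPIA, an isomerase of ribose phosphate, had 0.16, from 0.38 on array 1 and −0.070 on array 2. TALDO1, transaldolase, had 0.15 from probes of opposite sign. Genes of pyruvate entry into mitochondria, 7 of 12 measured, had a median of 0.057, with BRP44L, a subunit of the mitochondrial pyruvate carrier, above 0 on both arrays at 0.14 and 0.65. PDHA1, a subunit of pyruvate dehydrogenase, had 0.13 and PC, pyruvate carboxylase, 0.084. Fructose, mannose and glycerol entry, 8 of 11 measured, had a median of 0.055, with PMM1, a phosphomannomutase, at 0.21 from probes at −0.040, 0.022 and 0.63, MPI, the mannose phosphate isomerase, at −0.13 and GPD2, the mitochondrial glycerol phosphate dehydrogenase, at 0.10. In the glycogen and hexosamine branches, 11 of 13 measured, 8 genes were below 0 and the median was −0.067, with −0.0068 on array 1 and 0.021 on array 2. PGM3 and UAP1 of hexosamine synthesis had −0.38 and −0.33, and PYGL, a glycogen phosphorylase, had 0.54 on array 1 and −0.97 on array 2. Among these lists, PGD alone reached 1.5-fold as a gene.

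Likeness of pattern was measured as the distance between the log2 ratios of 2 genes on both arrays, which is 2 values a gene from 1 pair of RNAs. TPI1 and LDHA lay 0.27 apart. PGK1 as a mean of its probes lay 0.28 from TPI1 and 0.31 from LDHA, but this mean matches none of its 3 probes, which lay 0.48, 1.05 and 0.49 from TPI1 and 0.31, 1.21 and 0.25 from LDHA. The genes named as near to PGK1 are near to that mean only. ENO1 lay 0.79 to 1.04 from these 3, and GALK1 lay 2.49 to 3.15 from the other 4. The nearest named genes were ADNP, NME2 and NCKAP5 for TPI1, at 0.020 to 0.059, and DYNLT3, CTSC and IGF1 for PGK1, at 0.025 to 0.052. For LDHA they were PSME2, S100A10 and PSME4, at 0.036 to 0.091, and for ENO1 they were MYL6, LOC100624537 and HOPX, at 0.057 to 0.083. Within 0.2 of TPI1, PGK1, LDHA and ENO1 were 20, 26, 10 and 11 genes. GALK1 had 1 gene within that distance, MACROD1 at 0.19, followed by PSMG4 at 0.22 and DEGS2 at 0.28. Fewer genes lie near any point far from 0, so these numbers follow the distance from 0 by which the genes were chosen.

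Markers of cumulus cells lay mostly on the side of the glycolytic enzymes. Of 24 genes that mark cumulus and granulosa cells, 19 were measured, 17 of them below 0 and 2 above. Their median was −0.34 (−0.43 on array 1 and −0.17 on array 2) and their range was from −1.28 to 0.32. Of these 19, 12 were below 0 on both arrays and 0 above 0 on both. Of all 11938 named genes, 2198 were below 0 on both arrays and 2419 above. Farthest from 0 were TNFAIP6, NR5A2 and VCAN, with means of −1.28, −1.12 and −1.10, and each was below 0 on both arrays. INHA, FST, ADAMTS1, FSHR and PGRMC2 are counted below 0 by their means but had opposite signs on the arrays. INHA had −2.70 on array 1 and 0.97 on array 2, FST −2.08 and 1.40, and ADAMTS1 0.30 and −1.10. FSHR had −0.35 on array 1 and 0.018 on array 2, and PGRMC2 0.22 and −0.37. The 4 glycolytic enzymes lay within the range of these markers. This range is wide and the enzymes were chosen by this contrast, so it shows no likeness. Of 18 oocyte markers, 14 were measured, 10 above 0 and 4 below. Their median was 0.12 and their range −0.18 to 0.70, below GALK1, and 5 of them had the same sign on both arrays. The median was −0.095 on array 1 and 0.44 on array 2. Of 23 markers of theca, stroma, vessel and blood cells, 18 were measured, 11 of them below 0 and 6 below 0 on both arrays, with a median of −0.014 and a range from −2.13 to 0.095. RGS5, a marker of the pericytes of vessels, was the lowest, with −3.04 on array 1 and −1.22 on array 2, farther on the COC4 side than each cumulus marker and each glycolytic enzyme. DCN of stroma and CLDN5 of vessels were also below 0 on both arrays, with means of −0.39 and −0.30. So were LHCGR, ALAS2 and PDGFRA, nearer to 0 with means of −0.14, −0.14 and −0.11. KDR and TAGLN were, as genes, the 2 above 0 on both arrays, with means of 0.044 and 0.095. Each of these 2 had 1 probe with a mean below 0, at −0.035 and −0.11. PECAM1, VWF, LUM and COL1A1 had means between −0.0098 and 0.032 and opposite signs on the arrays. The part of these 3 marker lists in the contrasts of the glycolytic enzymes and GALK1 was not tested. Fewer cumulus cells in a COC and less RNA of these enzymes per cell cannot be told apart in RNA of whole complexes.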

How the data were processed

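Per the labels and the methods, single COC RNA was amplified (RiboAmp), labelled with Cy3 and Cy5 (ULS), hybridized in a dye swap, scanned on an Axon scanner and read in GenePix Pro, with background subtraction, manual exclusion of flawed spots and normalization, and analysed with limma in FlexArray. The authors deposited normalized log2 ratios for each array. The log2 scale was read from the size of the values and the 2-fold lines of the study's plot, while the sources used here give neither the method of normalization nor which dye was divided by which. Levels and detection were not computed, since only ratios were used, and precision is limited by having 2 arrays.

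Probes were named through the platform annotation (18121 of 43794 carry 1 symbol), the sign of array 2 was turned, arrays were averaged per probe and probes per gene. Counts at 2-fold, spans between probes, list medians and distances between genes are descriptions with no test. Genes were named by rule as all probes of the 5 genes, their isoenzymes and every enzyme of the 10 glycolytic steps. Also named were the 3 genes of each of 10 pathway lists farthest from 0 and the 3 nearest genes to each of the 5. The rule did not cover the 3 marker lists, whose single genes were named by no fixed rule. Members and lists were chosen with earlier results of these data known. A further table with 2 columns that match no sample by name was not used, so control spots were not analysed, and neither were sequences of promoters or proteins. RefSeq (Sscrofa11.1) served for names and neighbours only. Scripts were tested on simulated data and used Python 3.11.15, numpy 2.4.6, pandas 2.3.3 and matplotlib 3.10.9.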

Additional observations from a re-analysis of the deposited data

How the results depend on the processing

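Changes were compared with the SD among probes of 1 gene, 0.157 over 3325 symbols, and 80 of 109 alternative values moved by less. The 109 include counts of probes at other thresholds, to which this SD does not apply and which were classed as moved. TPI1 moved by less than this SD under every alternative that was run, but with 1 probe it had no alternative on the choice of probes. All 5 genes moved by less when each array was centred on its median. The medians were 0.0030 on array 1 and −0.0014 on array 2, so centring could hardly move any value and shows no robustness. On array 1 and array 2 singly, PGK1 had −0.27 and −0.78, ENO1 −1.20 and −0.31, LDHA −0.47 and −1.02 and GALK1 1.84 and 0.54, all with their sign kept. PGK1 depended on its probes: their median was −0.71, the farthest −0.96 and the nearest to 0, probe 2, turned the side at 0.082. The median of upper glycolysis was 0.11 on array 2 alone, and that of the pentose phosphate pathway was 0.35 on array 1 alone and, with the probe farthest from 0 for each gene, an alternative chosen after seeing the data, 0.34. Of the 8 probes, 7 were past 1.5-fold and 0 past 2-fold on each array, in place of 2, and of all probes 746 and 14, in place of 76. For differences between arrays the cause was not tested. Centring on negative control spots, removal of block medians and values of the full matrix were not run, since the table that may hold them was not used. No paired analysis was possible because the labels give no replicate numbers and each side is 1 COC.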
